A study of Mus musculus with 4 samples.

Results

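The U1, 7SK and Snora34 probes report small non-coding RNAs in S-180 cells, a mouse sarcoma line, after exposure to fluoxetine. The set held 5 RNA genes, Rnu1b6, Rnu1b1, Rnu1a1, Rn7sk and Snora34, out of 23785 genes named by a probe and 13539 genes that passed the filter on dim probes. A probe belonged to the set when its RefSeq transcript record mapped to one of these symbols. The symbols were picked for their signal difference between fluoxetine and control cells on these same arrays, so that difference is described below and not tested. Each RNA had 1 probe, printed as 1 spot per array.

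RNA was profiled on 4 one-colour Agilent mouse oligonucleotide arrays. The fluoxetine group was S-180 cells cultured for 12 h with 20 µM fluoxetine, a selective serotonin reuptake inhibitor (n = 2 arrays). The control group was S-180 cells cultured for the same time without the drug (n = 2 arrays). Both groups came from the same line, kept in serum-supplemented RPMI, and the labels call the samples of a group biological replicates without saying whether they came from separate cultures, so p-values measure only the spread between these samples.

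U1 is the RNA of the small nuclear ribonucleoprotein (snRNP) that pairs with the splice site at the start of an intron, and it also shields transcripts from premature 3′-end formation. 7SK, made by RNA polymerase III, holds the transcription elongation kinase P-TEFb in an inactive complex with HEXIM proteins. H/ACA small nucleolar RNAs (snoRNAs) such as Snora34 guide the conversion of uridine to pseudouridine and are usually released from introns of host transcripts. These RNAs normally carry no poly(A) tail, whereas labelling kits of the type named in the labels start cDNA synthesis from poly(A). Which form of each RNA, tailed, extended or mature, gave the signal was not tested. Probe sequences were not used here, and near-identical U1 copies may share one another's signal, so the values of single U1 genes are uncertain. In bulk RNA, fewer cells holding a transcript and less of it per cell cannot be told apart.

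RefSeq places Snora34 inside the protein-coding gene Kansl2 on mouse chromosome 15, overlapping the microRNA hairpin Mir1291, whose sequence is shown because it carries much of the Snora34 gene's span. The hairpin lies on the minus strand of build GRCm38.p6, and the capitals mark the 73 of its 117 bases that fall within the Snora34 span. The strand of Snora34 was not given in the table used.
Mir1291: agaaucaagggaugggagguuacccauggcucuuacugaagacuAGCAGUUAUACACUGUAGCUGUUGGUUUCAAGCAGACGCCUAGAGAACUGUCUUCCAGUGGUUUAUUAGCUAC
mmu-miR-1291: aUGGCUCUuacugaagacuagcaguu
In the second line the capitals mark the seed of the mature microRNA, which takes up bases 26 to 51 of the hairpin, and 7 of its 26 bases lie in the Snora34 span. Mir1291 had no probe, so only the snoRNA could be read.

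The U1 probes were all dimmer in fluoxetine cells than in control cells. The Rnu1b6 probe, for a U1b copy of the RNA, gave a processed signal of 4034 and 4545 on the fluoxetine arrays, against 15322 and 13000 on the control arrays. The Rnu1b1 probe, for another U1b copy, gave 4028 and 4161 on the fluoxetine arrays, against 13310 and 11799 on the control arrays. The Rnu1a1 probe, for a U1a copy, gave 5874 and 6004 on the fluoxetine arrays, against 16742 and 16458 on the control arrays. For every U1 probe both fluoxetine arrays lay below both control arrays. The members were picked for their difference between these groups, so this separation is no separate result, here or for Rn7sk and Snora34. The share of all tested genes whose groups separate in this way was not counted. On the scaled log2 axis, where each array is set to its own 75th percentile, the fluoxetine minus control change was -1.56 for Rnu1b6, -1.45 for Rnu1b1 and -1.32 for Rnu1a1. These are 2.95-fold, 2.74-fold and 2.50-fold lower scaled signals in fluoxetine cells. The U1 changes spanned 0.24 on the log2 scale, while arrays of one group differed by up to 0.20 for a single member.

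The 7SK probe moved to the same side. Rn7sk gave 12405 and 13351 on the fluoxetine arrays, against 38046 and 33800 on the control arrays. Both control arrays were brighter than both fluoxetine arrays. The scaled log2 change was -1.32, a 2.49-fold lower signal in fluoxetine cells. For U1 and 7SK the gap between the nearest fluoxetine and control arrays was between 1.18 and 1.47 on the log2 scale. This too is only descriptive, since the members were picked for that difference. As a description, 249 of the 13539 tested genes (1.84%) had a change as low as that of Rnu1a1 or lower.

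Snora34 was the opposite case. Its probe gave 1826 and 2125 on the fluoxetine arrays, against 363 and 321 on the control arrays. Both fluoxetine arrays were brighter than both control arrays. The scaled log2 change was 2.69, a 6.45-fold higher signal in fluoxetine cells, and 22 of the tested genes (0.162%) had a change as high or higher. All 5 probes were marked well above background on all 4 arrays and none was saturated. Without scaling, the fluoxetine over control ratios were 0.303 for Rnu1b6, 0.327 for Rnu1b1, 0.358 for Rnu1a1, 0.359 for Rn7sk and 5.77 for Snora34, so each direction was already present in the unscaled signal.

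**Figure D1:**
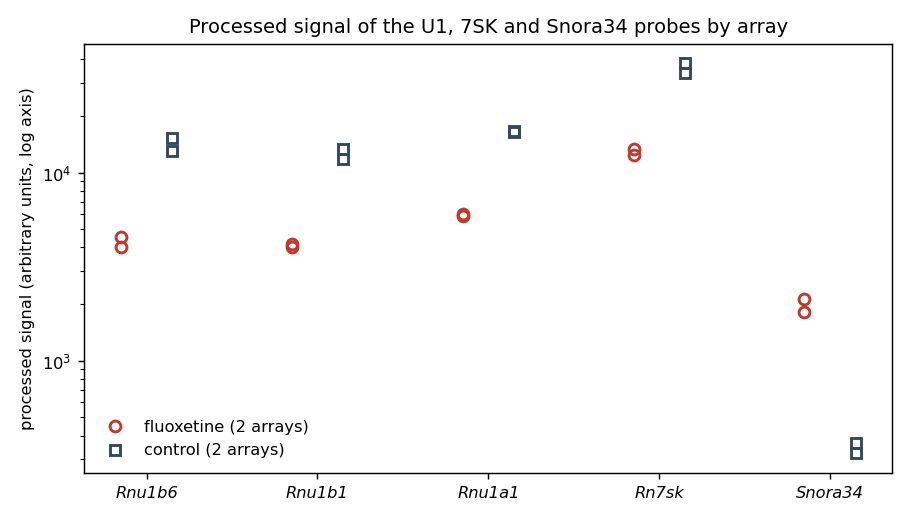
Processed signal of the 5 probes on each array (log axis, arbitrary units), with fluoxetine arrays as circles left of control arrays as squares. In each U1 and 7SK column both circles lie below both squares, and for Snora34 both circles lie above both squares.

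Kansl2, a subunit of the non-specific lethal histone acetyltransferase complex, has 3 probes. The brightest gave 3153 and 3485 on the fluoxetine arrays, against 3317 and 3432 on the control arrays. The next gave 2145 and 2130 on the fluoxetine arrays, against 2337 and 2350 on the control arrays, and the last was not well above background on any array. The brightest probe's groups overlapped in unscaled signal. Its scaled log2 change was 0.14 ± 0.10 (SE, n = 2 per group), which did not pass the test (limma adjusted p = 0.336), and the next probe's change was 0.03. With arrays scaled to their median in place of the 75th percentile, Kansl2 passed as higher at 0.35 (limma adjusted p = 0.0328), a setting that moves the median of all tested genes to 0.27. Snora34 and the gene around it therefore read 2.69 and 0.14 on the same axis. Snora2b, another snoRNA gene inside Kansl2, had no probe.

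Genes elsewhere on the array with the most similar profile were listed by the distance between log2 values centred over the 4 arrays, among genes above background on all of them. The nearest to Rn7sk was Olfr430, an olfactory receptor gene, at a distance of 0.0470 and a change of -1.35. Olfr430 was also among the 3 nearest to Rnu1b1 (0.106) and to Rnu1a1 (0.0917). The nearest to Rnu1b6 was Mmp1b, a matrix metalloproteinase gene, at 0.0528, the nearest to Rnu1b1 was Tal2, a transcription factor gene, at 0.0750, and the nearest to Rnu1a1 was Plaur, the urokinase receptor gene, at 0.0756. The other genes within the nearest 3 were Krt16 and Oprm1 for Rnu1b6, Rnase10 for Rnu1b1, Pik3ca for Rnu1a1, and Ccl17 and Vash1 for Rn7sk. Snora34 was nearest to Ampd3, an AMP deaminase gene, at 0.106, then to Nos2, the inducible nitric oxide synthase gene, at 0.202, and to Ndrg4 at 0.235. No member was among the 3 nearest of another.

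Other small non-coding RNAs with a probe numbered 20, and 19 of them were tested. Over all tested genes limma called 27.0% at an adjusted p under 0.05, with 16.8% higher and 10.2% lower in fluoxetine cells, and the median change was 0.06. Of the 19 small RNAs, 3 rose, 6 fell and 10 did not pass, with a median change of -0.32. The change of group means was below 0 in 15 of them, although the arrays of both groups overlapped for some, such as Scarna13. The calls were sensitive to single arrays, here as over all tested genes. The median change of the small RNAs was -0.32 without fluoxetine replicate 1 and -0.33 without fluoxetine replicate 2. It was -0.38 without control replicate 1 and -0.29 without control replicate 2. In the same order 15, 14, 15 and 14 of the 19 were below 0.

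Among the RNAs that fell, Rmrp, the RNA of the mitochondrial RNA processing endonuclease, gave 1843 and 2055 on the fluoxetine arrays, against 4023 and 3373 on the control arrays. Its change was -0.76 ± 0.09 (SE, limma adjusted p = 0.0163). Both fluoxetine arrays were below both control arrays. Rpph1, the RNA of ribonuclease P, fell by 0.51 on the log2 scale (adjusted p = 0.0266), and Snora73a, an H/ACA RNA needed for ribosomal RNA processing, fell by 0.49 (adjusted p = 0.0368) and did not pass with median scaling (-0.28, adjusted p = 0.0976). The C/D box snoRNA Snord7 fell by 0.91 (adjusted p = 0.0205). Snora81, an H/ACA snoRNA, was not well above background on either fluoxetine array and its fitted fold was 2.42-fold lower there (adjusted p = 0.0145). A bound, as for Scarna6 below, sets the brighter group's mean against a value on each dim array. That value is the higher of the probe's own signal and the array's lowest signal marked well above background. For Snora81 its own signal was the higher, so this gives only the fitted fold and no bound. Snora78 had -0.58 and did not pass (adjusted p = 0.197).

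Among the RNAs that rose, Rnu3b1, for the U3 RNA that directs early cuts of the ribosomal RNA precursor, gave 1045 and 1182 on the fluoxetine arrays, against 1000 and 839 on the control arrays. Both fluoxetine arrays were above both control arrays by a margin smaller than the spread within a group. Its scaled change was 0.44 ± 0.09 (SE, limma adjusted p = 0.0359), and without scaling it did not pass (0.28, adjusted p = 0.245). Snora23, an H/ACA snoRNA, rose by 0.37 (adjusted p = 0.0467) and likewise did not pass without scaling (0.21, adjusted p = 0.273). Scarna6, a guide RNA of Cajal bodies, was not well above background on either control array and was at least 1.85-fold higher in fluoxetine cells (adjusted p = 0.017). Terc, the telomerase RNA, had 0.56 and did not pass (adjusted p = 0.272). Other RNAs of the spliceosome and of protein targeting, singled out after their values were seen, did not pass: U2 (Rnu2-10) had -0.10, U12 (Rnu12) had -0.37 and 7SL (Rn7s1) had -0.28.

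**Figure D2:**
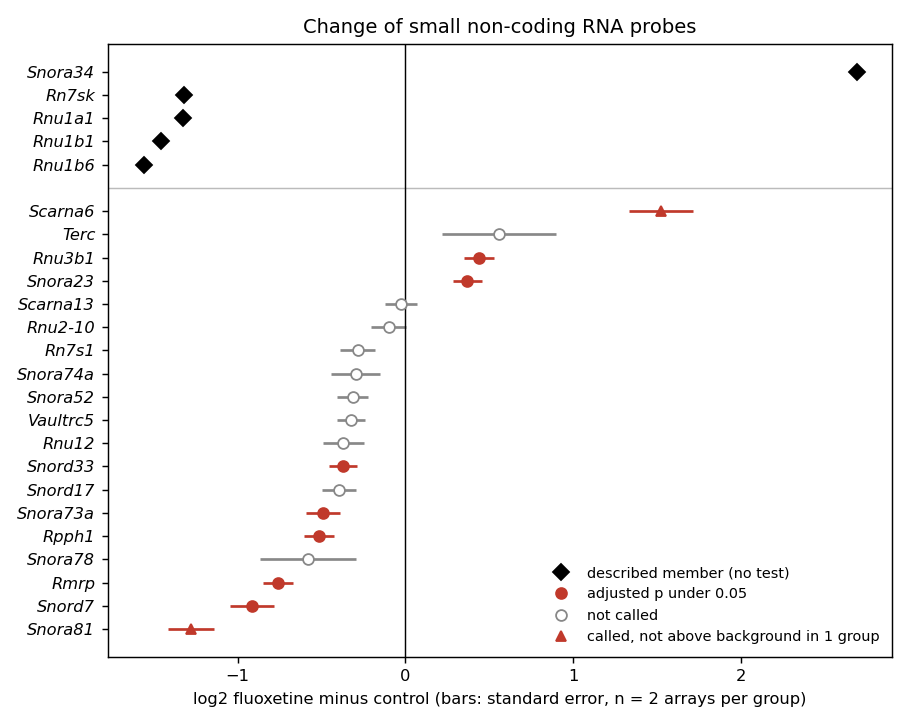
Change of each small RNA probe (horizontal axis, scaled log2 fluoxetine minus control), with the U1, 7SK and Snora34 probes as diamonds without a test and the 19 other tested small RNAs below with standard errors. Filled symbols passed the adjusted threshold, and 15 of the 19 lie left of 0.

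Small nucleolar RNA host genes are spliced transcripts with snoRNAs in their introns. The list read here held Snhg genes, Gas5 and Kansl2, and most were lower in fluoxetine cells. Of its 14 tested genes, 0 rose, 8 fell and 6 did not pass. So 57.1% of the list were lower against 10.2% of all tested genes, and its median was -0.59 against 0.06. Tested genes around other small RNAs, left out of the list, were mixed. Ipo7 rose by 0.59 and Eif4a2 fell by 0.52. Rps2 (0.15), Snx5 (0.07), Tex14 (-0.04), Rplp2 (-0.09), Snhg10 (-0.19), Atg16l1 (-0.21) and Rpl13a (-0.47) did not pass. Snhg7 gave 1453 and 1732 on the fluoxetine arrays, against 4831 and 3988 on the control arrays, a change of -1.31 ± 0.09 (SE, limma adjusted p = 0.00998). Both fluoxetine arrays lay below both control arrays. Snhg4 fell by 1.03, Snhg20 by 0.75 and Snhg12 by 0.70 (adjusted p = 0.0123, 0.0154 and 0.0191), and Snhg9, Snhg5, Snhg3 and Snhg1, the rest of the called genes and named after their values were seen, fell by 0.67, 0.65, 0.53 and 0.37. Gas5 (-0.20) and Snhg8 (-0.10) did not pass. Gas5 did pass as lower with the mean of its kept probes (-0.51, limma adjusted p = 0.0316). It also passed with normexp, an alternative background correction (-0.34, limma adjusted p = 0.0418). Fewer of the listed host genes were called with any 1 array left out, as over all tested genes. Their median was -0.61 without fluoxetine replicate 1 and -0.55 without fluoxetine replicate 2. It was -0.54 without control replicate 1 and -0.52 without control replicate 2.

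RefSeq spans placed several tested small RNAs within another tested gene, a comparison added after the data were seen. Besides Snora34 in Kansl2 there were 13 such pairs, that of Rnu1a1 included, of which 9 had the same sign in both genes. In 10 of the 13 the surrounding gene was below 0, and most of the small RNAs were too. Shared signs are therefore frequent without any link. Tex14 and Snora78 each enter more than once, so the pairs are not separate. Snora73a (-0.49) lay within Snhg3, which fell by 0.53. Snora81 lay within Eif4a2, a translation initiation helicase gene, which fell by 0.52 (adjusted p = 0.0262). Snora23 lay within Ipo7, a nuclear import receptor gene, which rose by 0.59 (adjusted p = 0.026). Scarna6 lay within Atg16l1, an autophagy gene with a change of -0.21 that did not pass. Rnu1a1 and Rnu3b1, with changes of -1.32 and 0.44, both lay within the span of the germ-cell gene Tex14, which had -0.04 and did not pass (adjusted p = 0.755). In 8 of the 13 pairs the surrounding gene did not pass. The table used gives no strand, so an overlap in span does not show that the small RNA is cut from that gene's transcript.

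**Figure D3:**
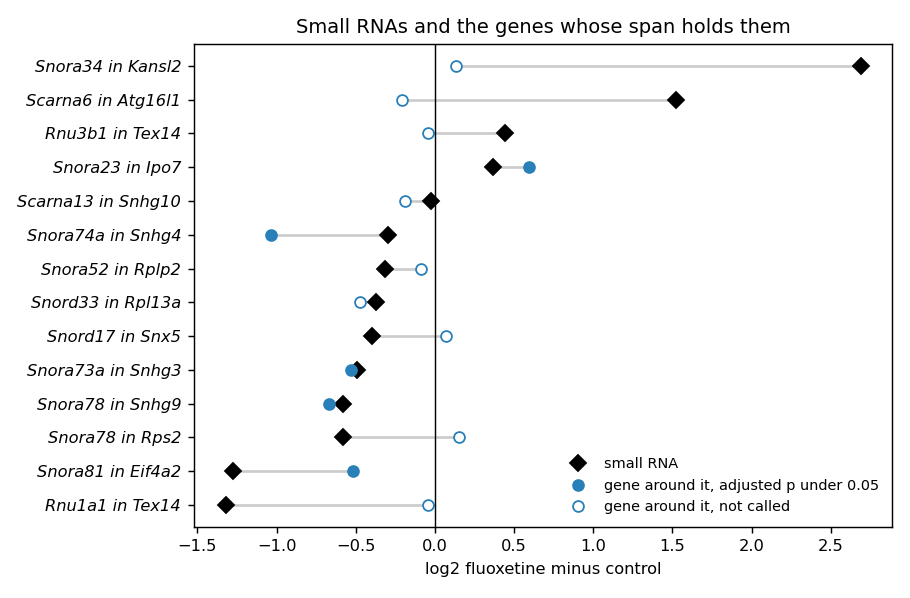
Scaled log2 change, fluoxetine minus control, of each small RNA (diamond) joined to that of the gene whose RefSeq span holds it (circle, filled where the adjusted p was under 0.05). The Snora34 and Kansl2 symbols stand at 2.69 and 0.14, and Rnu1a1 and Rnu3b1 lie on opposite sides of the value of the gene around both, Tex14.

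Genes that make, carry or work with these RNAs were grouped by role into 11 lists. The snoRNA host genes form one of these lists. Of 118 tested genes over the lists, 11 rose, 24 fell and 83 did not pass. That is 29.7% called, against 27.0% of all tested genes, with a median of -0.09 against 0.06. By list, the share called was 33.3% for U1 proteins, 28.6% for Sm proteins and 44.4% for U1-associated factors. It was 36.4% for snRNA transcription, 35.7% for Integrator and 5.26% for snRNP assembly and transport. For 7SK and P-TEFb it was 12.5%, for RNA polymerase III 18.8%, for H/ACA proteins 28.6% and for C/D proteins 40%. These shares come from short lists and were not tested. The count of called list genes was 35 with all arrays. It was lower with any 1 array left out, as was the count over all tested genes.

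The U1-specific proteins showed no common direction. Of 3 tested, Snrpa, the U1 A protein, rose by 0.35 ± 0.08 (SE, limma adjusted p = 0.0491), and it did not pass without scaling (0.19, adjusted p = 0.328). Snrnp70, the U1 70K protein, had 0.07 and Snrpc, the U1 C protein, had -0.18, and neither passed. Of the 7 Sm core proteins, which ring most spliceosomal RNAs, 0 rose, 2 fell and 5 did not pass, with a median of -0.28. Snrpd3 fell by 0.59 (adjusted p = 0.023) and Snrpd1 by 0.56 (adjusted p = 0.0282), while Snrpg had 0.08 and Snrpe -0.04 and did not pass. With no scaling Snrpd3 did not pass (-0.75, adjusted p = 0.0556), and with median scaling Snrpd1 did not (-0.35, adjusted p = 0.0644).

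Of 9 splicing factors that associate with U1, 1 rose, 3 fell and 5 did not pass, with a median of -0.21. Luc7l3, a relative of the yeast U1 protein Luc7, gave 263 and 333 on the fluoxetine arrays, against 985 and 827 on the control arrays, and fell by 1.45 ± 0.09 (SE, limma adjusted p = 0.00989). Both fluoxetine arrays were below both control arrays. Tia1, which helps U1 bind weak splice sites, fell by 0.43 (adjusted p = 0.0318) and Rbm25 fell by 0.41 (adjusted p = 0.0324). With median scaling neither passed, at -0.22 for Tia1 and -0.20 for Rbm25 (adjusted p = 0.0703 and 0.116), and Rbm25 did not pass with no scaling either (-0.57, adjusted p = 0.0682). Prpf40b rose by 0.77 (adjusted p = 0.0442), although its other kept probe had the opposite sign and it did not pass with the mean of both (0.34, adjusted p = 0.0965) or with no scaling (0.61, adjusted p = 0.0544). Luc7l2 had 0.25 and did not pass with its brightest probe, and its 5 other kept probes all had the opposite sign.

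Of 11 genes that transcribe small nuclear RNA genes, 3 rose, 1 fell and 7 did not pass, with a median of 0.19. The subunits of SNAPc, the complex that binds these promoters, were split: Snapc2 and Snapc5 rose by 0.51 and 0.46, and Snapc1 fell by 0.52 (adjusted p = 0.0298, 0.0353 and 0.038). The promoter activator Zfp143 rose by 0.60 (adjusted p = 0.0345). All of these calls depended on scaling: with no scaling Snapc2 (0.35, adjusted p = 0.109), Snapc5 (0.30, adjusted p = 0.145) and Zfp143 (0.43, adjusted p = 0.0983) did not pass, and with median scaling Snapc1 did not (-0.31, adjusted p = 0.0743). Of 14 subunits of Integrator, which cuts the 3′ ends of U RNAs, 2 rose, 3 fell and 9 did not pass, with a median of -0.02. Ints4 rose by 0.77 and Ints9 by 0.48, and Ints12 fell by 0.52 and Ints10 by 0.48 (adjusted p = 0.013, 0.0327, 0.0227 and 0.0259), with the other kept probe of Ints4 and of Ints12 opposite in sign. With the mean of kept probes Ints4 (0.26), Ints12 (-0.23) and Ints10 (-0.25) did not pass, and with no scaling Ints9 (0.32) did not (adjusted p = 0.119, 0.125, 0.0864 and 0.157). Of 19 genes for snRNP assembly and transport, only Coil, the scaffold of Cajal bodies, passed, and it fell by 0.33 (adjusted p = 0.0417). It did not pass with median scaling (-0.11, adjusted p = 0.226) or with no scaling (-0.49, adjusted p = 0.0818). Prmt5, which methylates Sm proteins, had 0.16 with its brightest probe and did not pass, and the mean of its kept probes was opposite in sign at -0.37 (limma adjusted p = 0.0364).

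Among 8 genes of the 7SK complex and P-TEFb, 0 rose, 1 fell and 7 did not pass, with a median of -0.26. Hexim2, an inhibitor of P-TEFb that binds 7SK, gave 646 and 1199 on the fluoxetine arrays, against 2732 and 2557 on the control arrays. The fluoxetine arrays were apart from each other by more than the control arrays were, and both lay below control. Its change was -1.43 ± 0.24 (SE, limma adjusted p = 0.0268). It did not pass without fluoxetine replicate 1 (-1.10, adjusted p = 0.0703), without control replicate 1 (-1.43, adjusted p = 0.0982) or without control replicate 2 (-1.42, adjusted p = 0.0746). Hexim1 had -0.35 (adjusted p = 0.256), Larp7, which binds the end of 7SK, had -0.30 (adjusted p = 0.056), Mepce, which caps it, had -0.23, and the kinase gene Cdk9 had 0.01, and none of these passed. Of 16 genes of RNA polymerase III and its factors, 3 rose, 0 fell and 13 did not pass, with a median of 0.10. The polymerase subunit genes Polr3b and Polr3a rose by 0.71 and 0.40 (adjusted p = 0.0285 and 0.0438), and neither passed with no scaling (0.55 and 0.24, adjusted p = 0.0634 and 0.213). Maf1, a repressor of the polymerase, had 0.24 and Ssb, the La protein, had 0.15, and neither passed.

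Proteins of the H/ACA particles, the class to which Snora34 belongs, were split as well. Of 7 tested, Dkc1, the pseudouridine synthase dyskerin, fell by 1.01 ± 0.11 (SE, limma adjusted p = 0.0145), with 357 and 359 on the fluoxetine arrays, against 816 and 793 on the control arrays. Shq1, a chaperone of dyskerin, rose by 1.15 ± 0.12 (adjusted p = 0.0141), with 442 and 453 on the fluoxetine arrays, against 219 and 233 on the control arrays. In both genes the groups were apart on every array, in opposite directions. With non-uniform spots kept, another probe became the brightest for Shq1, and the change was 0.19 and did not pass (adjusted p = 0.835). The other 5 did not pass, among them Gar1 (-0.13) and Nolc1 (0.19), and the list's median was -0.02. Of 10 genes for C/D particles, 0 rose, 4 fell and 6 did not pass, with a median of -0.12. Nop56, a core protein, fell by 0.70 (adjusted p = 0.0145), the assembly factors Znhit3, Znhit6 and Nufip1 fell by 0.49, 0.48 and 0.32 (adjusted p = 0.0338, 0.0275 and 0.0435), and the methyltransferase Fbl had 0.17 and did not pass. With median scaling Znhit3 (-0.28, adjusted p = 0.0982), Znhit6 (-0.27, adjusted p = 0.0617) and Nufip1 (-0.11, adjusted p = 0.229) did not pass. With no scaling Znhit3 (-0.65, adjusted p = 0.074) and Nufip1 (-0.48, adjusted p = 0.0858) did not.

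**Figure D4:**
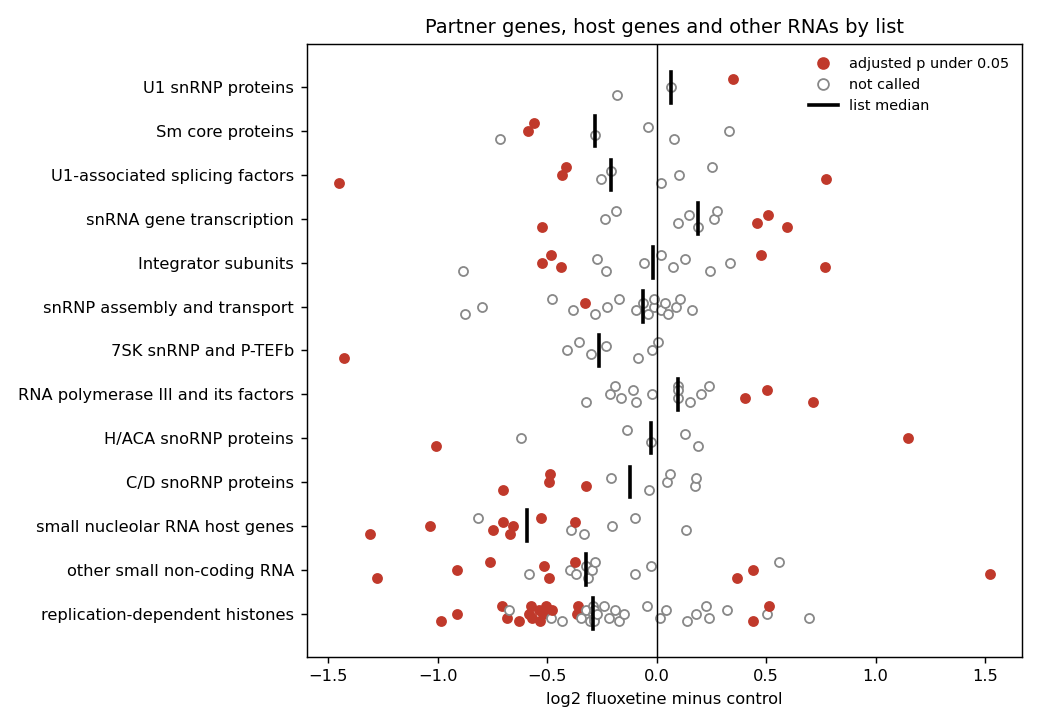
Scaled log2 change, fluoxetine minus control, of each tested gene by list (rows), with filled points for genes past the adjusted threshold and a bar at each list's median. The bar of the snoRNA host genes stands at -0.59, and those of the other lists lie between -0.32 and 0.19.

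Replication-dependent histone messages also lack a poly(A) tail in most cycling cells. Of 44 tested histone genes, 2 rose, 15 fell and 27 did not pass, so 34.1% were lower against 10.2% of all tested genes, with a median of -0.29 against 0.06. The largest fall was that of H2ac13, at -0.98 (limma adjusted p = 0.018), and H2bc18 fell by 0.91 (adjusted p = 0.013), both singled out after their values were seen. Unlike those of the other sets, the histone counts were not repeated under other scalings or filters or with an array left out.

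The direction of calls over the whole array depended on scaling. The main scaling gave 2276 higher and 1377 lower genes, so 62.3% of calls were higher. Scaling to each array's median gave 87.1% higher and moved the median of all genes to 0.27, and no scaling gave 37.3% higher with a median of -0.10. The 75th percentile of the processed signal was 356 and 419 on the fluoxetine arrays, against 449 and 415 on the control arrays. Between 51.7% and 53.5% of non-control spots were well above background on each array. Markers of the labelled cell type were read as well: 4 of 6 mesenchymal markers were above background in fluoxetine cells and 5 in control cells, with Vim, Fn1, Sparc and Col1a1 in both. The epithelial markers Epcam, Krt8 and Krt18, the leukocyte markers Cd3e and Itgam and the endothelial marker Pecam1 were above background in both groups too. All 4 arrays were printed on 1 slide and read in 1 scan, and an array's place on it cannot be told apart from its group. The number of arrays limits the precision, and an exact permutation test of 2 against 2 arrays cannot go below p = 0.333.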

How the data were processed

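Per the file headers, the authors extracted spot intensity (linear) with Feature Extraction 12.1.0.3. Its processed signal, used here, is background-corrected and unscaled between arrays. Later normalization or tests by the authors are not given in the sources used here. Repeated spots of a probe were averaged, non-uniform spots left out, and log2 signal set to each array's 75th percentile. Of 56605 probes, 34675 matched 1 symbol through their RefSeq accession (23785 symbols) and 21930 none. RefSeq spans are on GRCm38.p6. A gene was tested with its brightest probe among those marked well above background on each array of 1 group or more. Tests used limma 3.58.1 (lmFit, eBayes) in R 4.3.3 over 13539 genes, with Benjamini-Hochberg adjustment and a threshold of 0.05, after a test on simulated data. No p-value is given for the 5 members.

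The members and lists were chosen with earlier results of these data known. Named were all members, up to 4 called genes of each list by size of change and 2 bright others, up to 6 small RNAs per direction, Kansl2, and the 3 nearest profiles of each member. Exceptions are marked, and 1 gene that the rule names is not reported here. The planned normexp alternative (offset 50) used the median spot signal, since the files used here hold no mean signal column.

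Alternatives were quantile, median and no scaling, normexp, stricter and no filters on dim probes, the mean of kept probes, trended robust variance, a replicate block, keeping non-uniform spots, and leaving out each array. The arrays share a slide and scan, so no slide block was possible.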

Additional observations from a re-analysis of the deposited data

How the results depend on the processing

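Over all genes, limma called 3653, against 6294 with median scaling, 1550 with no scaling, 0 with no filter on dim probes (5272 at an unadjusted p under 0.05), and 265 to 2156 with 1 array left out (265 without fluoxetine replicate 1, 405 without fluoxetine replicate 2, 769 without control replicate 1, 2156 without control replicate 2). Of partner genes 35 were called, against 20 with no scaling, 0 with no filter (43 unadjusted) and 0 to 14 with 1 array left out. Of other small RNAs 9 were called, against 0 with no filter (11 unadjusted) and 0 to 3 with 1 array left out. A class by RefSeq biotype, added after seeing the data, gave 11 of 21. Of the listed snoRNA host genes 8 were lower, against 0 with no filter (10 unadjusted) and fewer with any 1 array left out. With the replicate number as a block the calls were 1859 genes, 16 partner genes and 4 other small RNAs. The labels do not pair equal numbers, and deviations of equally numbered arrays correlated at -0.117 over genes. A crossed pairing, added after seeing the data, called 2621 genes, 24 partner genes, 5 other small RNAs and 6 host genes. The members kept their direction under every alternative that could move their value. With median scaling and with no scaling Rnu1b6 was -1.35 and -1.72, Rnu1b1 -1.24 and -1.61, Rnu1a1 -1.11 and -1.48, Rn7sk -1.10 and -1.48, and Snora34 2.90 and 2.53, and Snora34 was 2.42 with normexp. With the mean of kept probes Luc7l2 was -0.82 (adjusted p = 0.0138) and Prmt5 -0.37 (adjusted p = 0.0364), opposite in sign to their brightest probes. The cause of these changes was not tested. For the 38 genes named by rule and called (the members aside), 110 of 416 values under alternatives that keep all arrays lost the call and 0 changed sign, and with 1 array left out 131 of 152 lost the call and 0 changed sign. For genes named by rule and not called, 33 of 375 values changed sign.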
